A study of Mus musculus with 12 samples.

Results

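The genes described here are 36 markers of the cell division cycle, measured in whole submandibular glands (SMGs) by bulk RNA-seq. They were chosen by symbol from a list of S phase and mitosis genes, matched through their Ensembl identifiers, and make up 36 of the 56065 genes in the count table. The design held 12 libraries in 4 groups of 3 mice aged 8 weeks: female C57BL/6J wild type, female C57BL/6J-Pou2f3-/- knockout, male C57BL/6J wild type and male C57BL/6J-Pou2f3-/- knockout. Pou2f3 encodes the transcription factor that specifies tuft cells, which are rare chemosensory cells of epithelia, and the knockout strain is described by the study as lacking them. The comparisons asked whether genes of DNA replication and mitosis differed between genotypes within each sex, and between sexes within each genotype.

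Cells that divide switch on their cell cycle genes in waves. Cyclin E (Ccne1, Ccne2) drives entry into S phase, the MCM proteins (Mcm2 to Mcm7) form the helicase that opens DNA at replication origins, Pcna is the sliding clamp of the DNA polymerases, and Rrm1, Rrm2 and Tyms supply deoxynucleotides. In G2 and mitosis, Cdk1 with cyclins A and B, the Aurora and Polo kinases, the kinetochore and checkpoint proteins (Bub1, Bub1b, the Cenp genes), the kinesins and the anaphase-promoting complex (APC/C; Cdc20, Ube2c) carry out chromosome segregation. The adult salivary gland renews slowly, by division of duct and acinar cells. In a bulk library, fewer dividing cells and less RNA per dividing cell cannot be told apart.

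The promoters of these genes are shown first because the 2 waves carry different recurring letters. In S phase genes the classical element is the E2F site, searched here as TTTCCCGC, TTTCGCGC, TTTGCCGC and TTTGGCGC. In G2 and mitosis genes it is the cell cycle homology region (CHR), searched as TTTGAA and TTCGAA, usually next to a CCAAT box, searched as CCAAT. Both strands were searched from 250 bases before to 50 bases after the start of the canonical Gencode M39 transcript on GRCm39, and TTCGAA reads the same on both strands. The 150 bases before the start are printed 5′ to 3′ for Mcm2 and Mcm4, which were lower in knockout females, and for Cdk1 and Kif23, which did not pass that test; capitals mark the searched letters or their reverse complement.
Mcm2, chr6:88875763-88875912, minus strand: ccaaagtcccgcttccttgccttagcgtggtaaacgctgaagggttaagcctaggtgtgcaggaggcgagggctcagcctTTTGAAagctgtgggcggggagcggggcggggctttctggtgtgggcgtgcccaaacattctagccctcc
Mcm4, chr16:15455265-15455414, minus strand: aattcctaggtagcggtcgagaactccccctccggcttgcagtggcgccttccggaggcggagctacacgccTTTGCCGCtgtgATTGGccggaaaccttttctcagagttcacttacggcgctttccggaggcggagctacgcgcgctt
Cdk1, chr10:69188769-69188918, minus strand: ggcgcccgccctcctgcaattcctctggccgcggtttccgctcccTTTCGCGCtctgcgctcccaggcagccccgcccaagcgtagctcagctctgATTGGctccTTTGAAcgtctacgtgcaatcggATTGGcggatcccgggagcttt
Kif23, chr9:61854074-61854223, minus strand: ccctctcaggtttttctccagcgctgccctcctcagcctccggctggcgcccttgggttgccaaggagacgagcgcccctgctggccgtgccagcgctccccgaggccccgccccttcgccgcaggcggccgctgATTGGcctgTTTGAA

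E2F letters were present in 5 of 13 S phase promoters (38.5%), against 3.7% of the 14181 promoters of all tested coding genes. The 5 were Cdc6, Mcm3, Mcm4, Mcm5 and Mcm6, and in Mcm5 and in Mcm6 a pair of matches on opposite strands overlapped. Among the 23 G2 and mitosis promoters, 1 held E2F letters (4.35%), that of Cdk1 printed above. CHR letters were present in 14 of the 23 (60.9%), against 2 of the 13 S phase promoters (15.4%) and 16% of all. A CHR and a CCAAT box together occurred in 13 of the 23 (56.5%), in 2 of the 13 S phase promoters (15.4%) and in 6.84% of all promoters. With or without a CHR, a CCAAT box was present in 17 of the 23 (73.9%) and 8 of the 13 (61.5%), against 39.2% of all. Of the 6 genes that passed the test in knockout females, Mcm4 and Mcm6 held E2F letters, while Pcna, Ccne1 and Ccne2 held none of the letters searched. Mcm2 held no E2F letters, but a CHR and a CCAAT box. These matches describe letters in the windows and not bound sites.

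**Figure D1:**
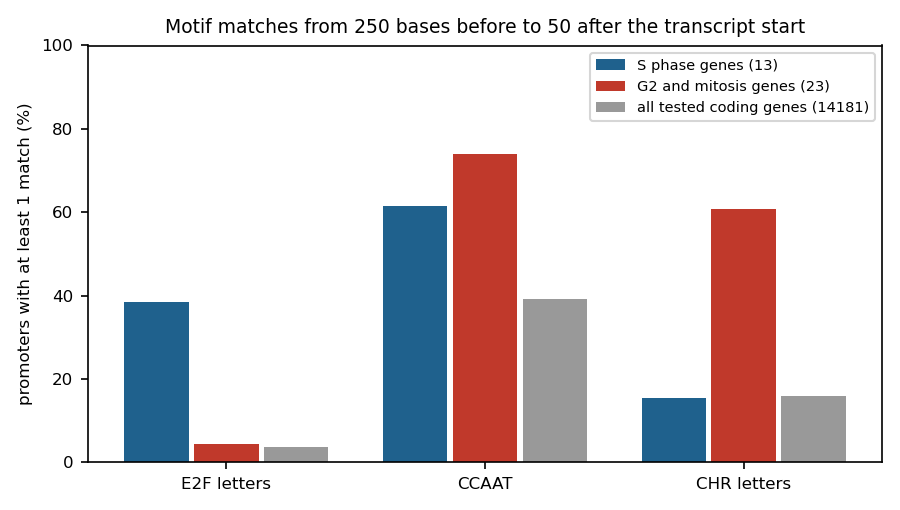
Share of promoters (in percent, vertical axis) with at least 1 match to the E2F, CCAAT or CHR letters, for 13 S phase genes, 23 G2 and mitosis genes and 14181 tested coding genes. E2F letters reach 38.5% in the S phase genes and CHR letters 60.9% in the G2 and mitosis genes, against 3.7% and 16% of all tested coding genes.

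Total counts ranged from 47032175 to 67882207 per library. Pou2f3 itself had 0 to 2 counts in female wild type libraries and 0 to 10 in male wild type libraries, against 0 in all knockout females and 0 to 3 in knockout males, so this gene could not check the genotype labels at this depth. The acinar gene Aqp5 (4897 to 14861 counts) and the duct gene Krt8 (3040 to 8381 counts) were present in every library. A pair of libraries stood apart: the mucin gene Muc19 had 228637 counts in female knockout replicate 3 and 518166 in male wild type replicate 3, against 111 to 7767 in the other 10. Many, but not all, of the results that rest on them are also given without both, a choice made after their values were seen. The scaling factors between libraries (TMM) ran from 0.625 to 0.759 in wild type females and from 0.902 to 1.03 in knockout females, without overlap. All 36 genes passed the filter on low counts, with 5 to 1218 counts per library, and together they took 0.00621% to 0.0140% of a library.

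Levels are given as normalized counts, which are counts scaled to a common library size, and for comparisons between genes as normalized counts per 1000 bases of the canonical transcript. On this per-length scale, Pcna was highest, at a mean level of 558.8 over the 12 libraries, followed by Mcm2 at 146.7, Rrm1 at 125.7 and Mcm7 at 116.9. The proliferation markers Top2a, the topoisomerase that untangles chromosomes, and Mki67, the Ki-67 antigen, stood at 67.2 and 52.2. The lowest levels on this scale were those of the mitotic kinase Bub1 (7.54) and of the replication licensing factor Cdc6 (7.55). The order differed between groups: in knockout females the levels were 438.1 for Pcna, 120.2 for Mcm7, 107.8 for Mcm2 and 100.2 for Rrm1, and Ccne1 was lowest at 5.67, while Cenpe was lowest in knockout males at 6.65.

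**Figure D2:**
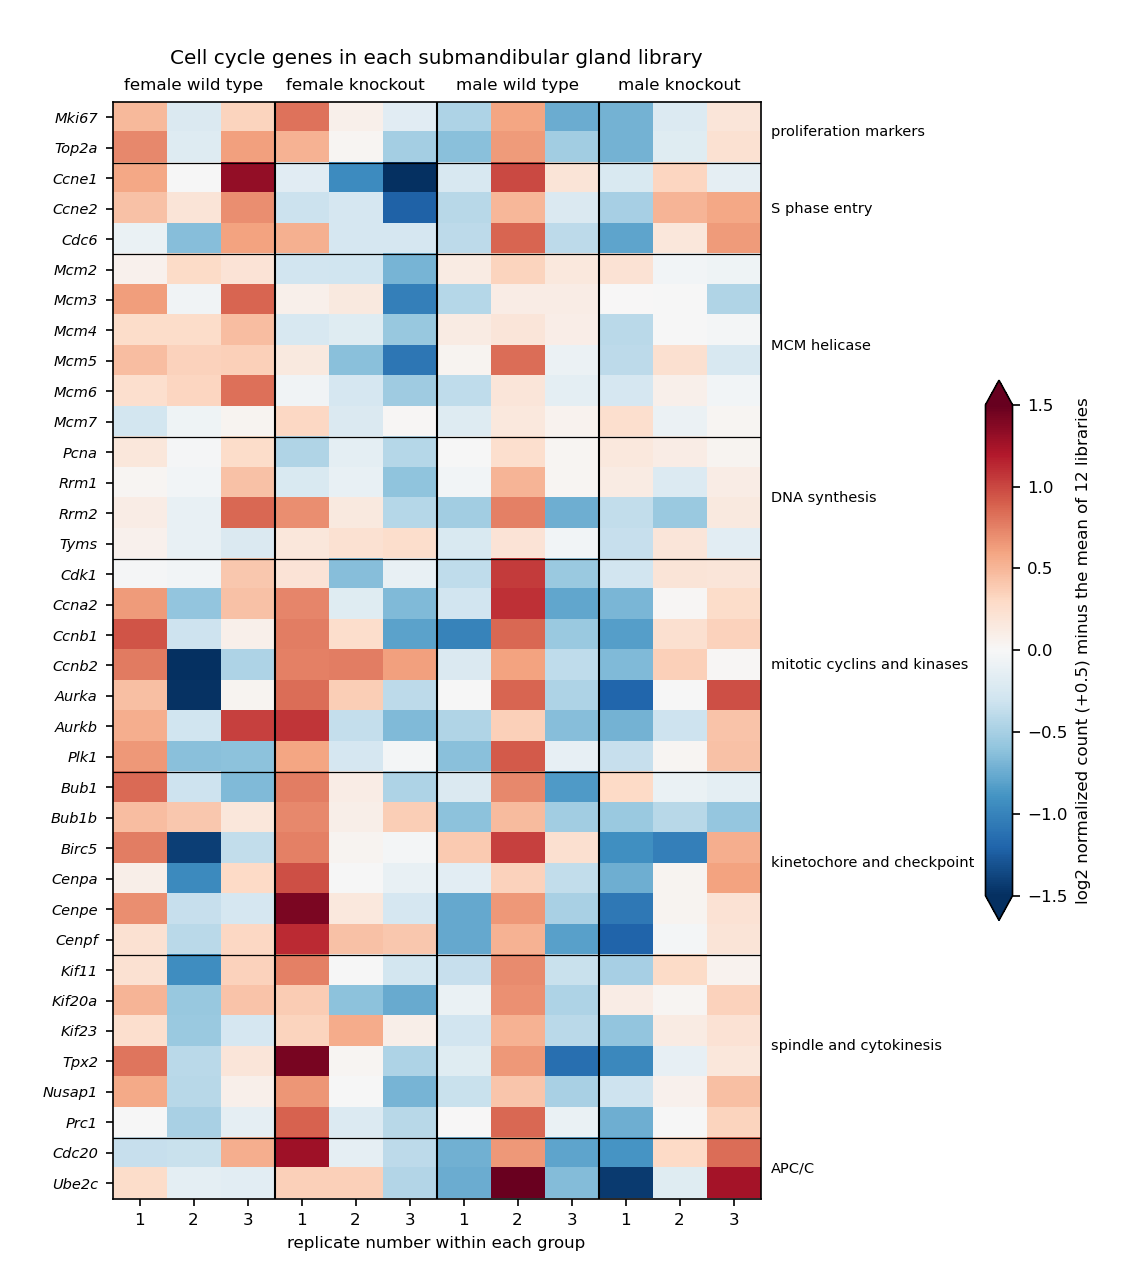
Each row is 1 gene and each column 1 library (3 replicates in each of 4 groups); colour gives log2 of the normalized count plus 0.5, minus the gene's mean over 12 libraries, and the colour scale ends at 1.5 in either direction. Male wild type replicate 2 is the reddest column of its group in all 36 rows, and the MCM rows other than Mcm7 are on average bluer in female knockouts than in female wild types.

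In knockout females, 6 of the 36 genes were lower than in wild type females and 0 were higher (edgeR quasi-likelihood test, adjusted p under 0.05 over 17893 genes), or 16.7% of the genes. In the same comparison 36.9% of all tested genes were called. As shares of all tested genes, 19.3% were called lower and 17.6% higher, so that the share of cell cycle genes called lower was near the background. The median log2 fold change was 0.04 over the 36 genes, from -0.41 without female knockout replicate 1 to 0.13 without female knockout replicate 3, and 0.03 over all tested genes. All 6 called genes belonged to the 13 S phase genes, whose median was -0.60: Mcm2, Mcm4, Mcm6, Pcna, Ccne1 and Ccne2. None of the 23 G2 and mitosis genes was called by edgeR or DESeq2. By edgeR 0 of the 23 had an unadjusted p under 0.05, against 8290 of all 17893 tested genes, and the median of the 23 was 0.20. This median moved to -0.20 without female knockout replicate 1, to -0.06 without female wild type replicate 2 and to 0.33 without female wild type replicate 1, where Ccnb2 was called higher by edgeR. The precision of the groups differed as well, since the median standard error of the log2 fold change was 0.20 for the S phase genes and 0.47 for the G2 and mitosis genes, against 0.20 over all tested genes. The difference between the groups was not tested.

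The helicase subunit Mcm2 (ENSMUSG00000002870.9, chr6:88860452-88875762) had 508.1, 593.9 and 557.6 normalized counts in wild type females and 398.3, 392.9 and 298.7 in knockout females. All knockout values lay under all wild type values, and the level was 1.52-fold lower (log2 fold change -0.60, SE 0.13, edgeR adjusted p = 0.0041). Mcm4 (ENSMUSG00000022673.6, chr16:15440211-15455264) had 267.6, 268.4 and 305.9 in wild type and 187.1, 196.0 and 148.7 in knockout females. It also did not overlap between genotypes (log2 fold change -0.66, SE 0.15, edgeR adjusted p = 0.0052). Mcm6 (ENSMUSG00000026355.12, chr1:128259311-128287516) had 267.6, 280.1 and 396.3 in wild type and 215.9, 188.2 and 154.9 in knockout females. Its log2 fold change was -0.75 (SE 0.20, edgeR adjusted p = 0.011), and wild type replicate 3 was the highest library. The other 3 subunits were not called by edgeR: Mcm5 stood at -0.82 (SE 0.32, edgeR adjusted p = 0.061) with no overlap between genotypes, Mcm3 at -0.71 (SE 0.31, adjusted p = 0.089) with overlap, and Mcm7 at 0.15 (SE 0.16). Of the 6 helicase subunits, 5 were thus below 0, and 3 were past the threshold by edgeR. DESeq2 called 0 of the 36 genes higher and 8 lower, the same 6 with Mcm5 and Rrm1. In that fit 32.4% of all tested genes were called, in either direction.

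Pcna (ENSMUSG00000027342.15, chr2:132091082-132095234), the polymerase clamp, had 939.8, 830.0 and 1017.2 normalized counts in wild type females and 612.0, 759.7 and 623.3 in knockout females. The knockout libraries lay under the wild type ones, and the log2 fold change was -0.48 (SE 0.12, edgeR adjusted p = 0.0064). Its processed pseudogenes Pcna-ps1 and Pcna-ps2 held at most 3 counts in any library. Among the enzymes of nucleotide supply, Rrm1, the large subunit of ribonucleotide reductase, stood at -0.45 (SE 0.18, edgeR adjusted p = 0.070) and did not overlap between genotypes. The small subunit Rrm2 stood at -0.14 (SE 0.40), and thymidylate synthase Tyms at 0.31 (SE 0.18, edgeR adjusted p = 0.20).

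The cyclin E genes showed the widest differences. Ccne1 (ENSMUSG00000002068.17, chr7:37797404-37808264) had 31.5, 20.8 and 52.7 normalized counts in wild type females and 18.5, 10.7 and 6.2 in knockout females, at 5 to 51 counts per library over the 4 groups. It was the only one of the 6 past a log2 fold change of 1 in size, at -1.55 (SE 0.51, edgeR adjusted p = 0.030). Ccne2 (ENSMUSG00000028212.17, chr4:11190303-11204947) had 102.3, 85.6 and 122.1 in wild type and 60.0, 63.1 and 32.2 in knockout females (log2 fold change -0.99, SE 0.36, edgeR adjusted p = 0.047). Neither overlapped between genotypes. Cdc6, which loads the helicase onto origins, stood at 0.02 (SE 0.50) and overlapped. Over all 36 genes, 8 had every knockout female under every wild type female and 2 (Tyms and Cenpf) the reverse, that is 22.2% and 5.56%, against 24.1% and 25.2% of all tested genes.

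The calls of Mcm2, Mcm4 and Pcna held under each of the 10 other settings and without each single female library, while those of the cyclins did not. Ccne1 was lost without female wild type replicate 3, female knockout replicate 2 or female knockout replicate 3 (edgeR adjusted p from 0.021 to 0.12 over the 6 libraries left out). Ccne2 was lost without replicate 1 or 3 of either genotype (edgeR adjusted p from 0.047 to 0.14), and also with upper-quartile scaling (0.071), the authors' own factors as offsets (0.081), scaling on protein-coding genes (0.058) or a replicate block (0.050). With the authors' factors Mcm6 was lost as well (0.070), and Mcm5 was called lower and Mcm7 higher, so that 4 of the 6 calls were shared. Without both libraries rich in Muc19, 3 of the 6 calls were left, Mcm2 (edgeR adjusted p = 0.032), Mcm4 (0.043) and Pcna (0.044), and 24.3% of all tested genes were called.

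**Figure D3:**
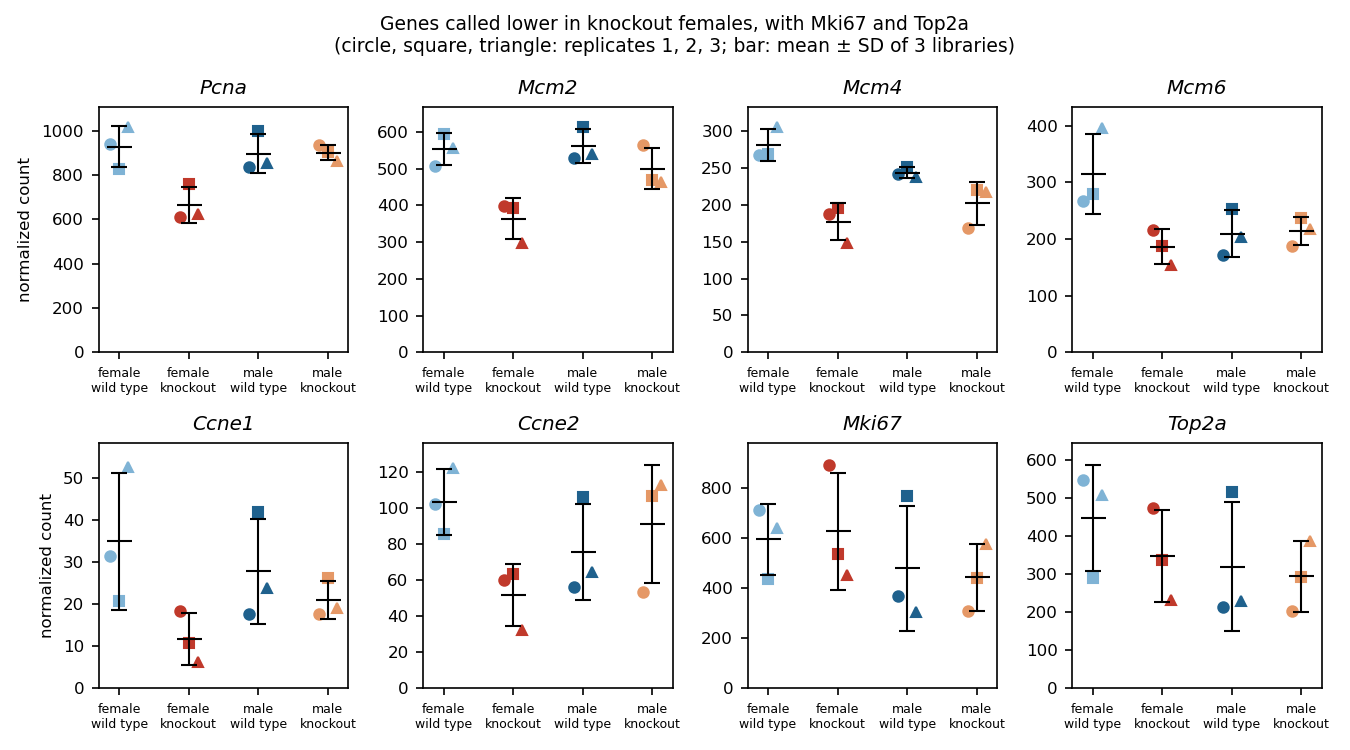
Normalized counts (vertical axes, from 0) of the 6 genes called lower in knockout females and of Mki67 and Top2a, in 4 groups of 3 libraries; symbols are replicates and bars the mean ± SD. The 6 called genes have all knockout females under all wild type females, while Mki67 and Top2a overlap between the genotypes.

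The usual proliferation markers were not called. Mki67 (ENSMUSG00000031004.9, chr7:135291513-135318299) had 709.4, 437.0 and 638.9 normalized counts in wild type females and 890.2, 535.6 and 452.3 in knockout females. The ranges overlapped, and the log2 fold change was 0.07 with a 95% interval of -0.61 to 0.76 (edgeR adjusted p = 0.90). Top2a (ENSMUSG00000020914.18, chr11:98883769-98915062) had 546.4, 289.2 and 507.8 in wild type and 474.6, 337.6 and 233.0 in knockout females, again with overlap. Its log2 fold change was -0.36, with an interval of -1.09 to 0.36 (edgeR adjusted p = 0.47), so that a lower level of about the size seen for the helicase genes was within its error.

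Of the mitotic cyclins and kinases, the highest log2 fold change was that of the B-type cyclin Ccnb2, at 0.88 (SE 0.55, edgeR adjusted p = 0.23). Ccnb2 had 54.0, 6.5 and 22.6 normalized counts in wild type females and 53.1, 53.4 and 48.3 in knockout females. The spread lay in the wild type females, where replicate 2 was low and replicate 1 was as high as the knockouts. The partner kinase Cdk1 stood at -0.27 (SE 0.40), cyclin A2 (Ccna2) at -0.17 (SE 0.50) and cyclin B1 (Ccnb1) at -0.13 (SE 0.54). The kinases Aurka, Aurkb and Plk1 stood at 0.48 (SE 0.61), -0.29 (SE 0.52) and 0.20 (SE 0.47). None of these 7 genes separated the genotypes.

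In the kinetochore and checkpoint group, all 6 log2 fold changes were above 0 and none was called. They ran from 0.06 for the checkpoint kinase Bub1b to 0.62 for the kinetochore protein Cenpf (SE 0.41, edgeR adjusted p = 0.26). Cenpf had 129.3, 83.0 and 137.1 normalized counts in wild type and 240.2, 149.4 and 146.2 in knockout females, without overlap but with replicate 1 well above the others. Between these stood Bub1 (0.10), the chromosomal passenger Birc5 (0.36), the centromeric histone Cenpa (0.46) and the kinetochore motor Cenpe (0.50). Among the spindle and cytokinesis genes, Kif23 (0.49, SE 0.34) was highest and Kif20a (-0.44, SE 0.39) lowest, both kinesins of the dividing cell's midzone, with Kif11, Tpx2, Nusap1 and Prc1 between -0.04 and 0.41. The APC/C genes stood at 0.43 (SE 0.56) for Cdc20 and 0.13 (SE 0.70) for Ube2c, which had the widest error of the 36 at 11 to 99 counts per library.

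**Figure D4:**
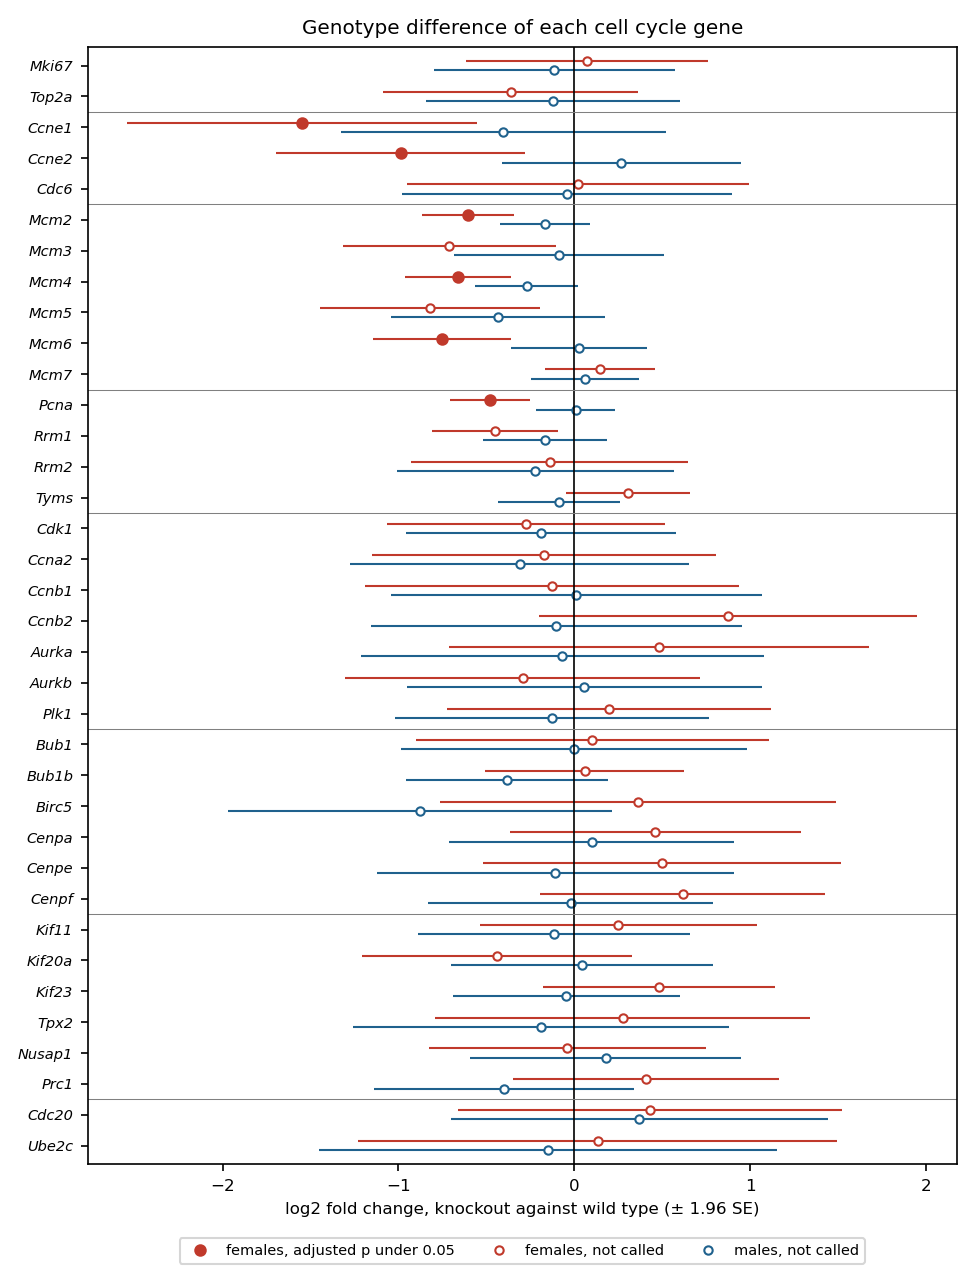
Log2 fold change of knockout against wild type (horizontal axis, bars are 95% intervals) for the 36 genes, females in red and males in blue, filled where the adjusted p was under 0.05. The 6 filled points, all in females, lie between -1.55 and -0.48, and the bars of the G2 and mitosis genes all cross 0.

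In knockout males, 0 of the 36 genes had an unadjusted p under 0.05 by edgeR, against 2056 of all 17893 tested genes, and 0 of the 36 were called. The background was low too, with 0.235% of all tested genes called (42 genes; 0.101% higher and 0.134% lower). This background rose to 635 genes (3.42%) without male knockout replicate 1 and fell to 13 to 25 genes without any other single male library, with 0 of the 36 called in each fit. DESeq2 called 388 genes (2.2%) and also 0 of the 36. The median log2 fold change was -0.10 over the 36 genes, from -0.28 without male knockout replicate 3 to 0.38 without male wild type replicate 2, and -0.04 over all tested genes, and the adjusted p ran from 0.53 to 1. Mcm4 had the lowest unadjusted p, with 167.9, 220.2 and 217.9 normalized counts in knockout males under 242.1, 251.3 and 237.5 in wild type males. It was the 1 gene of the 36 whose groups did not overlap (2.78%), against 7.95% of all tested genes with every knockout lower, and its log2 fold change was -0.27 (SE 0.15, edgeR adjusted p = 0.53). The next were Birc5 at -0.88 (SE 0.56), Mcm5 at -0.43 (SE 0.31), Bub1b at -0.38 (SE 0.29) and Mcm2 at -0.17 (SE 0.13). Pcna had 935.5, 905.4 and 865.1 in knockout males, within the range of the wild type males at 836.4, 1000.2 and 855.1. The 95% interval of its log2 fold change, from -0.22 to 0.23, was the narrowest of these named genes. Mki67 stood at -0.11 (interval -0.80 to 0.57) and Top2a at -0.12 (interval -0.84 to 0.60).

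The test of the difference between the sexes (female knockout effect minus male knockout effect) called 1 of the 36 genes (2.78%), where 25.7% of all tested genes were called, 13.4% above and 12.4% below 0. The share of all tested genes called was 12.9% without male wild type replicate 1 and 6.21% without both libraries rich in Muc19. That gene was Pcna, at -0.49 on the log2 scale (SE 0.16, edgeR adjusted p = 0.043). The helicase genes Mcm6 (-0.78, SE 0.28, adjusted p = 0.057), Mcm2 (-0.44, SE 0.19, adjusted p = 0.099) and Mcm4 (-0.39, SE 0.21, adjusted p = 0.19) and the cyclin Ccne2 (-1.26, SE 0.50, adjusted p = 0.080) did not pass this test. Mki67 (0.19, SE 0.50) and Top2a (-0.24, SE 0.52) were far from it. Among the 36 genes, edgeR thus called a sex difference of the knockout effect for Pcna only, and this call was lost in 8 of the 12 fits without 1 library (female wild type replicate 3, female knockout replicates 1 and 3, male wild type replicates 1 and 3, or any male knockout; edgeR adjusted p from 0.0095 to 0.10) and without both libraries rich in Muc19 (0.19).

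In wild type mice, 1 of the 36 genes was called between the sexes, against 36.5% of all tested genes, 20.5% higher and 16.0% lower in males. Mcm6 had 171.4, 253.7 and 202.9 normalized counts in wild type males, under the 267.6, 280.1 and 396.3 of wild type females, with a log2 difference, male minus female, of -0.59 (SE 0.20, edgeR adjusted p = 0.035). This call was lost without female wild type replicate 3, male wild type replicate 1 or male wild type replicate 3 (edgeR adjusted p from 0.017 to 0.15 over the libraries left out), and without both libraries rich in Muc19 (0.10). Of the 36 genes, 2 (5.56%) had every wild type male under every wild type female and 0 the reverse. Of all tested genes, 20.9% and 26.7% did. Mcm3 stood at -0.58 (SE 0.31, edgeR adjusted p = 0.15), Bub1b at -0.49 (SE 0.29), Prc1 at 0.52 (SE 0.38) and Aurkb at -0.70 (SE 0.52). Pcna (-0.05, SE 0.11) and Mcm2 (0.02, SE 0.13) differed little between wild type sexes, and Mki67 (-0.31, SE 0.35) and Top2a (-0.49, SE 0.37) had wide errors. Without male wild type replicate 2, Top2a (-1.01, edgeR adjusted p = 0.039) and Bub1b (-0.93, adjusted p = 0.013) were called lower in males, and the median of the G2 and mitosis genes moved from -0.08 to -0.64. This median was 0.13, -0.31 and 0.04 without female wild type replicates 1, 2 and 3. It was 0.10 and 0.20 without male wild type replicates 1 and 3, and 0.21 without both libraries rich in Muc19.

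Among knockouts, 3 of the 36 genes differed between the sexes (8.33%), against 43.5% of all tested genes, 23.2% higher and 20.3% lower in males. Pcna (0.44, SE 0.12, edgeR adjusted p = 0.0081) and Mcm2 (0.46, SE 0.13, adjusted p = 0.014) were higher in males, and the lowest male library lay above the highest female library for both. They were the 2 of the 36 genes (5.56%) with every male above every female, and 3 (8.33%) had the reverse. Of all tested genes, 27.3% and 27.5% did. The checkpoint kinase Bub1b (ENSMUSG00000040084.10, chr2:118428684-118472076) was lower in males, with 56.9, 62.8 and 56.3 normalized counts against 138.6, 89.3 and 109.1 in knockout females (log2 difference -0.93, SE 0.29, adjusted p = 0.021). Ccne2 (0.80, SE 0.36) and Cenpf (-0.93, SE 0.41) each had an adjusted p of 0.086. Under upper-quartile scaling Pcna and Mcm2 lost their calls, and Cenpf and Tyms joined Bub1b as lower in males. Without both libraries rich in Muc19 only Bub1b was called (edgeR adjusted p = 0.047). The Bub1b call was lost without replicate 1 or 3 of either sex (edgeR adjusted p from 0.022 to 0.11) and that of Mcm2 without male knockout replicate 1 (0.053), where Ccne2 was called higher in males. The genotype comparison in females, the interaction and the comparisons between sexes share libraries and are not independent of each other.

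Single libraries differed widely in the mitotic genes. The summed normalized count of the 23 G2 and mitosis genes was 2939, 1646 and 2578 in wild type females and 3639, 2166 and 1788 in knockout females. In males it was 1560, 3396 and 1423 for the wild type and 1325, 2019 and 2537 for the knockouts. The 4 groups overlapped throughout. The sum of the 13 S phase genes was 3811, 3627 and 4571 in wild type females against 3250, 3120 and 2490 in knockout females, without overlap, and 3258 to 4432 in wild type and 3448 to 3513 in knockout males.

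**Figure D5:**
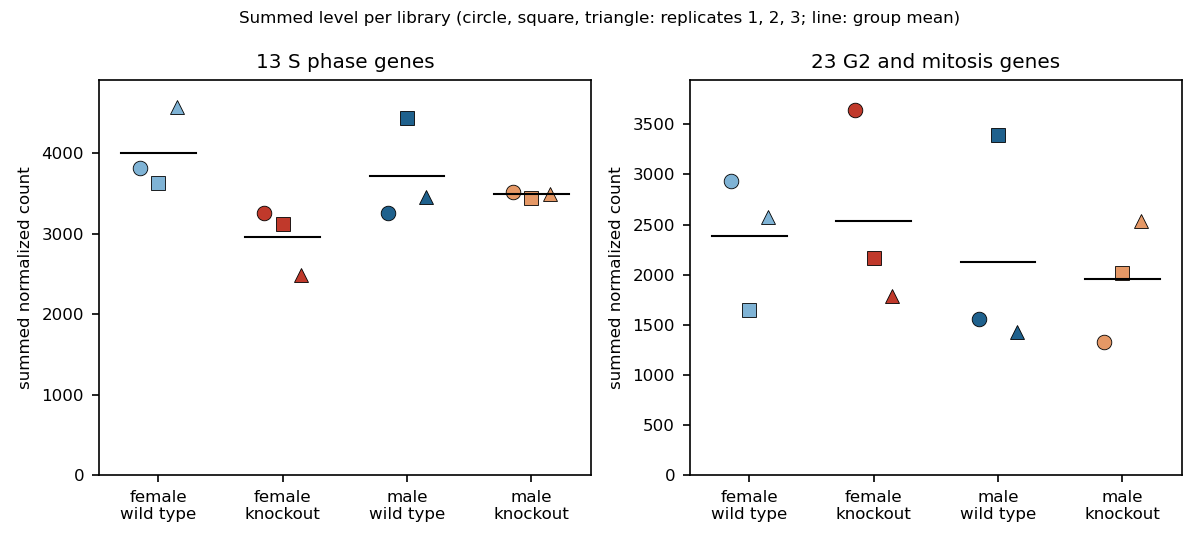
Summed normalized counts per library (vertical axes, from 0) of the 13 S phase genes and of the 23 G2 and mitosis genes in 4 groups of 3 libraries; lines are group means. The S phase sums of knockout females, 2490 to 3250, lie under those of wild type females, 3627 to 4571, and the mitotic sums of the 4 groups overlap.

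The same libraries were high or low in nearly all mitotic genes. Male wild type replicate 2 was the highest of its group in 36 of 36 genes, against 40.6% of all tested genes. Female knockout replicate 1 was the highest of its group in 21 of the 23 mitotic genes (91.3%), against 33.1% of all tested genes. Female knockout replicate 3 was the lowest in 20 of the 23, against 5607 of all 17893 tested genes. Female wild type replicate 2 was lowest in 19 of the 23, against 4882 of all tested genes. Male knockout replicate 1 was also lowest in 19 of the 23, against 6136 of all tested genes. The within-group SD on the log2 scale had a median of 0.52 to 0.70 for the mitotic genes, depending on the group, of 0.25 to 0.30 for the S phase genes and of 0.20 to 0.22 for all tested genes. Of the genes with the widest swing, Ube2c, the ubiquitin-conjugating enzyme of the APC/C, had normalized counts of 16.9, 81.3 and 18.1 among the wild type males, and of 10.3, 25.3 and 69.0 among the knockout males.

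A wider list of 124 cell cycle genes outside the 36, of which 122 were tested, gave 3 higher and 13 lower in knockout females (13.1%, background 36.9%), with a median log2 fold change of 0.02. Without both libraries rich in Muc19 it gave 2 higher and 8 lower of 123 tested, against 11.1% and 13.1% of all tested genes. It gave 0 calls in males, where 6 of the 122 had an unadjusted p under 0.05 by edgeR, against 2056 of all 17893 tested genes. In knockout females the lowest adjusted p of this list was that of Wee1, the kinase that holds Cdk1 inactive before mitosis. Wee1 had 737.5, 744.4 and 934.3 normalized counts in wild type females and 304.8, 325.0 and 290.0 in knockout females (log2 fold change -1.39, SE 0.14, edgeR adjusted p = 0.00013). Wee1 in males had 385.2, 490.2 and 439.4 for knockouts against 611.1, 616.7 and 469.2 for wild types (log2 fold change -0.37, SE 0.14, edgeR adjusted p = 0.31). Cyclin D1 (Ccnd1), which acts with Cdk4 and Cdk6 in G1, had 7529.9, 7500.7 and 9890.1 in wild type females and 3567.8, 2955.3 and 2454.9 in knockout females (log2 fold change -1.47, SE 0.16, edgeR adjusted p = 0.00016). In males Ccnd1 had 2445.4, 2953.2 and 3048.4 for knockouts under 3427.7, 4418.0 and 4048.0 for wild types, without overlap, but was not called (log2 fold change -0.49, SE 0.16, edgeR adjusted p = 0.23). Both genes lay apart between the female genotypes, in every library, and both were called without the Muc19-rich libraries (edgeR adjusted p = 0.0014 and 0.0022). In females 23 of the 122 genes (18.9%) had every knockout under every wild type, against 24.1% of all tested genes. In males 6 of the 122 (4.92%) did, against 7.95%.

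Among 41 tested replication factors, 6 were lower (14.6%, under the background of 19.3%) and 0 higher in knockout females, led by the flap endonuclease Fen1 (-0.87, SE 0.15), the chromatin factor Uhrf1 (-1.05, SE 0.27) and the origin recognition subunit Orc2 (-0.56, SE 0.15). Among 49 G2 and mitosis factors, 5 were lower, also a share under that background, led by Wee1, the Cdk-binding Cks1b (-0.92, SE 0.19) and the checkpoint protein Bub3 (-0.44, SE 0.10), and 1 was higher, Pkmyt1, also an inhibitory kinase of Cdk1 (0.72, SE 0.18), against a background of 17.6% higher. Of 10 G1 cyclins, kinases and RB family genes, Ccnd1 was lower, while the S phase kinase Cdk2 (0.42, SE 0.10) and the cyclin Ccnd3 (0.29, SE 0.10) were higher, a share of 20% near the background of 17.6%; the Ccnd3 call was lost in each fit without 1 female library and without both Muc19-rich libraries (edgeR adjusted p = 0.10 in the latter). Of 16 E2F, MYB and DREAM factors, E2f5 was lower (-0.37, SE 0.12), with an edgeR adjusted p of 0.082 without both Muc19-rich libraries. None of 6 tested CDK inhibitors was called. Of these 6, 2 had an unadjusted p under 0.05 by edgeR, against 8290 of all 17893 tested genes. In males 0 of the 6 were called, all 6 stood above 0 (median 0.41), and 2 had such a p, against 2056 of all tested genes. Of the 6, 3 (50%) had every knockout male above every wild type male and 0 the reverse, against 6.51% and 7.95% of all tested genes. Between the sexes the wider list had 10 genes higher and 17 lower in wild type males and 15 higher and 11 lower in knockout males. These were 22.1% and 21.3% of those tested, against 36.5% and 43.5% of all tested genes. Espl1, the protease that cleaves cohesin, stood at 1.56 (SE 0.35) and 2.04 (SE 0.35). Without the Muc19-rich libraries these counts were 8 and 7 in wild types and 8 and 10 in knockouts, of 123 tested, against 25.1% and 31.7% of all tested genes.

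Replication-dependent histone genes, which are transcribed in S phase, were lower in knockout females in 12 of 62 tested genes and higher in 0, with a median log2 fold change of -0.55. That share of 19.4% was near the 19.3% of all tested genes called lower. Of the 62, 57 were among the 3546 tested coding genes with the shortest canonical transcripts (up to 2198 bases), whose median log2 fold change in knockout females was -0.26, against 0.05 among the 3544 longest (at least 5153 bases). Of the 6 called genes Pcna (1518 bases) and Ccne1 (2078 bases) were among these short genes too, while the median of the 8 of the 36 genes among them was 0.25. The part of transcript length in these values was not tested. Without both Muc19-rich libraries 6 of 64 were lower (9.38%, background 13.1%), and the median was -0.36. In males 0 of the 62 were called, and the median was 0.10. Of the 62, 2 had an unadjusted p under 0.05 by edgeR in males, against 2056 of all 17893 tested genes. In wild type males 27 of the 62 were lower than in wild type females (43.5%, background 16.0%), and 16 of 64 without the Muc19-rich libraries (25%, background 10.2%). Between the knockout sexes, males had 5 of these 62 higher and 3 lower, against 23.2% and 20.3% of all tested genes, and the median log2 difference was -0.09, where it was -0.73 between wild type sexes. Without the Muc19-rich libraries the balance turned to 2 higher and 7 lower of 64, against 17.6% and 14.1%, and the median was -0.24. Female knockout replicate 3 had the lowest summed level of these histone genes, 13956 normalized counts, against 19078 and 18848 in the other knockout females. These genes exist in near-identical copies among which the counting can divide reads, so values of single copies are uncertain.

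Markers of other cell types were read beside these results, with 19.3% of all tested genes lower and 17.6% higher in knockout females. Of 10 T cell markers, 4 were tested and none was called in knockout females. The chain gene Cd3e had 1 to 14 counts per library, and the 10 markers summed to 266 to 418 normalized counts in wild type females and 227 to 389 in knockout females, most of them from Thy1, which other cells also express. Thy1 was lower in wild type males than in wild type females (log2 difference -1.83, edgeR adjusted p = 0.00075). Of 8 tuft cell markers, Gnat3 and Il25 were at 0 in all 12 libraries, and only Dclk1 and Avil were tested. Avil was higher in knockout females, with 63.5, 24.3 and 39.7 normalized counts against 18, 2.6 and 9 in the wild type (a log2 fold change of 2.06, edgeR adjusted p = 0.014), and Dclk1 was not called (0.19, adjusted p = 0.22). Of 6 endothelial markers Kdr was lower (-0.51, edgeR adjusted p = 0.020), and of 2 tested skeletal muscle markers Acta1 was lower, at 0 to 1 normalized counts in knockout females and 1.1, 15.6 and 1.5 in wild type females. In knockout females, 3 of 6 markers of basal and duct progenitor cells were lower, and their summed level was 8041 to 8680 against 9584 to 12154 normalized counts in wild type females. Of 8 acinar markers 2 were lower and 3 had a log2 fold change above 0, with a sum of 1517902 to 1898657 against 2376314 to 2753569, and of 8 macrophage markers 3 were lower, with sums of 4015 to 6075 against 4796 to 11071 that overlapped. Of 8 markers of the granular convoluted tubule, the duct segment rich in growth factors, 2 were higher. Without both Muc19-rich libraries, 13.1% of all tested genes were lower and 11.1% higher in knockout females. The counts in that fit were 1 of 6 for basal and duct progenitor markers, 2 of 8 for acinar, 0 of 8 for macrophage and 2 of 8 for tubule markers. They were 1 of 2 for tuft, 0 of 6 for endothelial and 0 of 2 for skeletal muscle markers, so that the calls of Kdr and Acta1 ended. In knockout males none of the markers of these lists was called against wild type males. In this comparison 2056 of all 17893 tested genes had an unadjusted p under 0.05 by edgeR. Of 8 macrophage markers 8 were above 0 and 6 had such a p, with sums of 5408 to 10021 against 4339 to 5125 normalized counts. Of 6 fibroblast markers 6 had such a p, with sums of 28823 to 51515 against 23583 to 25983. Of 6 erythroid markers 4 had one, with sums of 221 to 671 against 118 to 166. Of 8 acinar markers 8 were below 0 and 3 had such a p, and their median turned from -1.18 to 1.33 without both Muc19-rich libraries. Such a p was also found for 3 of 6 endothelial, 3 of 6 basal and duct progenitor and 1 of 4 tested T cell markers. Between knockout sexes, 23.2% of all tested genes were higher and 20.3% lower in males. Males had 5 of 6 erythroid, 4 of 6 fibroblast, 4 of 8 macrophage and 7 of 8 tubule markers higher. Lower in males were 5 of 6 endothelial and 5 of 8 acinar markers. Of the 36 cell cycle genes, Pcna and Mcm2 were called higher and Bub1b lower in males. Basal and duct progenitor markers had 2 of 6 higher and 2 lower, and germinal centre markers 2 of 4 higher and 1 lower. Of 2 tested tuft markers Dclk1 was lower in males (-1.22, edgeR adjusted p = 7.6e-06). Of 2 tested skeletal muscle markers Acta1 was higher (7.47, edgeR adjusted p = 3.4e-05) and Ckm lower (-1.19, adjusted p = 0.014). Without both Muc19-rich libraries 3 of 6 fibroblast and 2 of 8 macrophage markers were higher, against 17.6% of all tested genes. Between wild type sexes, with 20.5% of all tested genes higher and 16.0% lower in males, 7 of 8 tubule markers were higher. Lower in males were 5 of 8 macrophage, 4 of 6 endothelial and 5 of 8 acinar markers, beside the call of Mcm6. Of 6 basal and duct progenitor markers 4 were lower and 1 higher. Fibroblast, erythroid and germinal centre markers each had 1 higher, and T cell and tuft markers each 1 lower. Of 2 tested skeletal muscle markers Acta1 was higher (4.06, edgeR adjusted p = 0.00028) and Ckm lower (-1.70, adjusted p = 0.0021) in males. Without both Muc19-rich libraries 1 of 8 macrophage, 5 of 6 endothelial, 5 of 8 acinar and 3 of 6 basal and duct progenitor markers were lower, against 10.2% of all tested genes. The part of these cell types in the values of the cell cycle genes was not tested.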

How the data were processed

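Bulk RNA-seq libraries of whole SMGs were made, per the labels, from 100 ng of total RNA with a stranded kit that removes ribosomal RNA and sequenced as paired reads of 100 bases; the labels also name the molecule as polyA RNA. The authors deposited estimated counts per gene, made with Salmon 1.10.1 (submitters' processing notes) on Gencode M35 and GRCm39, and a second table of normalized signal, in which each count had been divided by the authors by its own gene-specific and library-specific factor; how these factors were made is not given in the sources used here, and they served only as offsets in 1 alternative. Of the count values, 78.9% were whole within 1e-06.

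Counts were rounded and tested with edgeR 4.0.16 (R 4.3.3): TMM scaling, filterByExpr, a quasi-likelihood fit with 1 mean per group over all 12 libraries, and Benjamini-Hochberg adjustment over 17893 genes, with a call at an adjusted p under 0.05. Standard errors were obtained from the F statistic, as the log2 fold change over its square root, and 95% intervals from the normal distribution. Normalized counts are scaled to a mean effective library size of 57815222. Where a gene had 0 counts, counting error alone left room for 3 counts (0.0442 to 0.0638 CPM). The study describes the 3 replicates of a group as separate mice. The 36 genes and the wider lists were chosen with earlier results of these data known. Named were the called genes of a comparison or, with fewer than 5 called, the 5 with the lowest p, and always Mki67, Top2a, Pcna and Mcm2; of each wider list, up to 3 called genes per direction. Gene positions and promoters came from Gencode M39 on GRCm39; 55563 of the 56065 gene identifiers matched. Alternatives were other scalings and filters, DESeq2 1.42.0, a replicate block, only the groups compared, and each library left out.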

Additional observations from a re-analysis of the deposited data

Results flagged for a closer look

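The effect of the knockout differed between the sexes, by the interaction term of the edgeR fit (females minus males, log2 scale), for 11 of the genes named, and no cause was tested. By this term 25.7% of all tested genes were called, against 1 of the 36 genes (2.78%) and 10 of the 122 tested genes of the wider list (8.2%). Of the cell type markers, 5 of 8 macrophage, 2 of 6 erythroid, 1 of 4 T cell and 1 of 4 germinal centre markers were called below 0. None was called above 0, where 12.4% of all tested genes were called below and 13.4% above. Without both libraries rich in Muc19, 1 of 6 erythroid markers was called below 0 and no other marker was called. Pcna stood at -0.49 (SE 0.16, adjusted p = 0.043). The difference was negative for Wee1 (-1.02, SE 0.20), Cks1b (-1.06, SE 0.26), Ccnd1 (-0.98, SE 0.23), Fen1 (-0.66, SE 0.21), Orc2 (-0.62, SE 0.21) and Bub3 (-0.45, SE 0.14). The difference was positive for Brca2, a homologous recombination gene (1.00, SE 0.31), Pkmyt1 (0.83, SE 0.25), Myc (0.63, SE 0.21) and Cdk2 (0.56, SE 0.15). Wee1, Ccnd1 and Cks1b passed this test in each of the 12 fits without 1 library, and the other 8 genes did not. Myc passed in 1 of the 12. Without both libraries rich in Muc19, Wee1 alone of the 11 was called (-0.87, adjusted p = 0.043), and the adjusted p of the other 10 ran from 0.057 for Ccnd1 to 0.19 for Pcna and Bub3.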

How the results depend on the processing

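In females, 5 to 8 of the 36 genes were called under the 10 planned settings (6 in the fit reported). In these settings 20.1% to 42.4% of all tested genes were called. Without 1 library 4 to 8 were called, the lowest without replicate 3 of either genotype, against 26.5% to 38.4% of all tested genes. Leaving out both libraries with over 100000 Muc19 counts, chosen after seeing the data, left 3, against 24.3% of all tested genes. In males the number called was 0 throughout. The interaction (1 called) gave 2 with RLE scaling, 0 with upper-quartile scaling and 2 without the 20 most abundant genes in the library sizes. It gave 0 with scaling on coding genes, 0 with no filter and 3 with DESeq2. Without 1 library it gave 0 to 3, and without both Muc19-rich libraries 0. The shares of all tested genes called were 14.6% to 31.8% over the settings, 12.9% to 30.2% without 1 library and 6.21% without both. Between wild type sexes (1 called), 0 were called with the groups compared only, 0 to 3 without 1 library and 0 without both Muc19-rich libraries. Of all tested genes, 20.2% to 43.4% were called over the settings, 27% to 35% without 1 library and 25.1% without both. Between knockout sexes (3 called), upper-quartile scaling turned 2 higher and 1 lower into 0 and 3, the authors' factors and no filter each gave 4, and 2 to 3 were called without 1 library and 1 without both. Here 24.1% to 50.3% of all tested genes were called over the settings, 33.7% to 40.3% without 1 library and 31.7% without both. With the replicate number as a block, 6 genes were called in females, with Ccne2 lost and Mcm5 gained, and 0 in the interaction. Deviations of same-numbered libraries from their group means correlated at -0.14 to 0.27, highest between female and male wild type replicate 1. With 3 libraries per group, these values cannot decide whether the numbers pair the libraries. Rbl2, a retinoblastoma family gene called higher in knockout males than knockout females (0.26), turned to -0.054 with the authors' factors. Upper-quartile scaling moved the median of all genes from 0.03 to 0.13 in females and from -0.02 to -0.18 between knockout sexes. The causes were not tested. The median standard error of the G2 and mitosis genes, 0.47 with 3 libraries per group, bounds the size of difference that could be called; how much of it comes from depth was not tested.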
